A study of Mus musculus with 2 samples.

Results

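Ada, Rnase1, Slc7a8, Tst, Csrp2 and Sdr16c5 are 6 of the 27998 genes counted in cells of the mouse buccal lining, the stratified epithelium inside the cheek. They were chosen because their RNA was high in cells that had left the basal state, so every value below that compares cells by differentiation is a description of what the choice already used, and no test is attached to it. Buccal cells of 10 female C57BL/6 mice, 12 weeks old, were pooled and sorted for high surface CD104, an integrin subunit encoded by Itgb4 that anchors basal cells to the basement membrane. The suspension was then divided and run as 2 technical libraries on the 10x Chromium platform, which tags each RNA molecule of a cell with a unique molecular identifier (UMI). The 2 libraries therefore stand for 1 independent sample with no treatment or genotype to compare, and differences between cell classes carry no p-value. Each value is given for library 1 and then library 2, and intervals are exact 95% Poisson intervals that cover counting error only.

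Of 16291 barcodes, 15470 met the filter of 500 or more genes and no more than 10% mitochondrial UMIs, 6907 in library 1 and 8563 in library 2, with medians of 7690 and 6709 UMIs per cell. They were ordered by the sum of Krt4 and Krt13, the keratin pair of the suprabasal layers of such linings, in UMIs per 10,000 UMIs of the cell. Cells under 80 numbered 3517 and 4098, cells from 80 to under 350 numbered 1936 and 2409, and cells of at least 350 numbered 1454 and 2056. Cells of at least 350 were divided by 2 further sums, the cornified genes Cnfn, Lor, Sprr3 and Crct1 (at least 5 per 10,000 or not) and the stress genes Krt16, S100a8 and Alox15 (at least 10 per 10,000 or not). This gave 1287 and 1807 plain cells with neither, 102 and 153 cornified cells, 59 and 93 stress cells, and 6 and 3 cells with both. Krt14, a keratin of the basal layer, stood at 87.0 and 88.3 per 10,000 in cells under 80, 24.4 and 24.9 in cells of 80 to 350, and 4.95 and 5.25 in plain cells. Itgb4 followed the same order, at 1.28 and 1.15, 0.494 and 0.468, and 0.137 and 0.119 per 10,000, so RNA of the sorted surface protein was low in the cells where the 6 genes were high. Of 104 barcodes found in the lists of both libraries, 97 and 103 were kept, and leaving them out moved no count of members.

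The 6 genes were grouped under the name of early suprabasal metabolism, and the data bear that name out in part. All 6 were higher in plain cells than in cells under 80, but Ada, Rnase1, Tst and Sdr16c5 were higher still in cornified cells, which stand later. Of these only Ada was higher there by at least 1.5-fold in both libraries, and the difference of Tst depended on the cells with most UMIs, as given below. Csrp2 encodes a structural protein and Slc7a8 a transporter, so only 4 of the 6 are enzymes.

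When a keratinocyte leaves the basement membrane it stops dividing, replaces Krt5 and Krt14 with the keratins of its upper layers and builds up the proteins of the cornified envelope. Its small-molecule metabolism shifts with it, including the handling of nucleosides, amino acids and vitamin A. Ada deaminates adenosine and deoxyadenosine, and in mice it is known to be abundant in the epithelia of the mouth, oesophagus and forestomach. Rnase1 is a secreted ribonuclease, Tst is the mitochondrial enzyme rhodanese that moves sulfur from thiosulfate to cyanide and other acceptors, and Sdr16c5 oxidises retinol to retinaldehyde, the step before retinoic acid. Slc7a8 is the light chain of a neutral amino acid exchanger that works only when joined to the heavy chain Slc3a2. Csrp2 is a small LIM-domain protein bound to the actin cytoskeleton and known mostly from smooth muscle.

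All 6 are protein-coding genes that overlap no other annotated gene, and each has 1 row in the count matrices. In GENCODE M21 coordinates of GRCm38, the assembly that mm10 names, Ada (ENSMUSG00000017697) lies at chr2:163726584-163750239 on the minus strand. Rnase1 (ENSMUSG00000035896) lies at chr14:51144998-51146785, minus strand, and Slc7a8 (ENSMUSG00000022180) at chr14:54722209-54781946, minus strand, 3.58 megabases away. Tst (ENSMUSG00000044986) occupies chr15:78399556-78405907 on the minus strand. Its neighbour Mpst, the related mercaptopyruvate sulfurtransferase, begins 508 bases away on the plus strand. Csrp2 (ENSMUSG00000020186) is at chr10:110919789-110939622 on the plus strand, and Sdr16c5 (ENSMUSG00000028236) is at chr4:3995936-4019663 on the minus strand. Its paralogue Sdr16c6 lies 36265 bases away on the same strand with no protein-coding gene between them.

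The RefSeq promoters of Ada, Rnase1 and Slc7a8 are shown because only these 3 of the 6 genes had a matched promoter. Each is the 250 bases before the transcription start in RefSeq on GRCm38.p6, read 5′ to 3′ on the gene's own strand. Ada is chr2:163750240-163750489, Rnase1 is chr14:51146768-51147017 and Slc7a8 is chr14:54781887-54782136, all on the minus strand. Capitals mark matches, on either strand, to the GC box GGGCGG, to CACCC and to CCAAT.
Ada: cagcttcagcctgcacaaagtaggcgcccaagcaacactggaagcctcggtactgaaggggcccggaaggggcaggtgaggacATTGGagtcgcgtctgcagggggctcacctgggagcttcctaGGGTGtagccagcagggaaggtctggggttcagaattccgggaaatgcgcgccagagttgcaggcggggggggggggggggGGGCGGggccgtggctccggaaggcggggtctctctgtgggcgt
Rnase1: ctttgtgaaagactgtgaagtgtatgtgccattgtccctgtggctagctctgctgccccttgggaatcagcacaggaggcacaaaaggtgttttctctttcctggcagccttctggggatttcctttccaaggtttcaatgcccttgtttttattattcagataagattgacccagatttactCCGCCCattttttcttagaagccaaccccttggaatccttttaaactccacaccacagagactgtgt
Slc7a8: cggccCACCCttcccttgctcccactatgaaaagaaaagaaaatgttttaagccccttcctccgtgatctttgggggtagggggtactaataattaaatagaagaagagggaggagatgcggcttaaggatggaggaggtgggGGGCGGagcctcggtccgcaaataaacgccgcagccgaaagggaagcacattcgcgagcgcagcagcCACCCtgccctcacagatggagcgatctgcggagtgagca
The GC box occurs once in each, 44 bases before the start of Ada, 67 before that of Rnase1 and 107 before that of Slc7a8, and 32.7% of 32851 promoters of this length hold it. CACCC occurs once in Ada, 125 bases before the start, and at 245 and 40 bases before it in Slc7a8; 52.0% of all promoters hold it. CCAAT occurs once, in Ada, and is held by 33.8% of promoters. TATAAA (12.4% of promoters), TGANTCA (6.75%) and TTGCNNAA (9.56%) are in none of these 3 windows. The promoters differ in base composition. Guanine and cytosine make up 67.2% of the Ada window, 45.6% of the Rnase1 window and 55.6% of the Slc7a8 window, against a median of 52.4% over all promoters. No sequence feature searched here sets the 3 apart as a group.

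Every member was higher in plain cells than in cells under 80, by 5.09-fold to 37.1-fold. A gene was counted as higher or lower when its level moved by at least 1.5-fold in the same direction in both libraries, among genes averaging at least 20 UMIs per 1000000 over both sides. On this rule 6 of 6 members were higher, and of 5072 genes compared 9.15% were higher and 27.4% lower. The 9 genes that set the classes and the mitochondrial genes were left out of the genes compared. Since this contrast chose the members, nothing is read from their count. With median-of-ratios scaling in place of total UMIs, 717 genes were higher and 889 lower, against 464 and 1389 with total UMIs, and the members stayed higher. Over all compared genes the median log2 ratio was -0.24. Plain cells also held more RNA, with medians of 14174 and 11587 UMIs, against 6468 and 5390 in cells under 80. With every cell thinned to 3000 UMIs all 6 stayed higher.

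**Figure D1:**
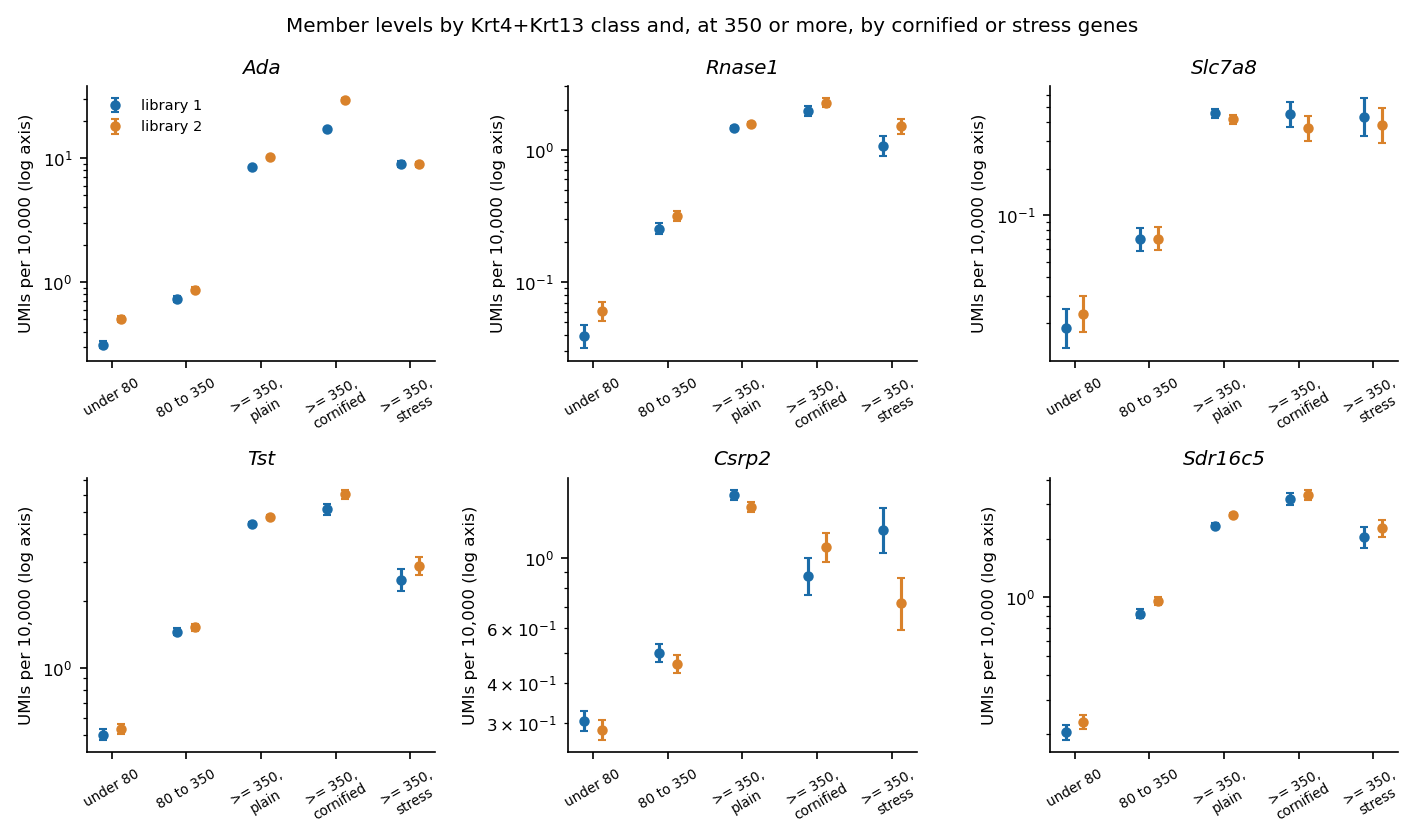
Level of each of the 6 genes (vertical axis, UMIs per 10,000, log scale) in cells under 80, cells of 80 to 350, and plain, cornified and stress cells of at least 350 (horizontal axis), with 1 point per library and bars for exact 95% Poisson intervals. All 6 genes are lowest under 80; Ada stands at 17.0 and 29.6 in cornified cells, and Csrp2 is highest in plain cells.

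Ada, the adenosine deaminase, had 0.314 and 0.501 UMIs per 10,000 in cells under 80 (intervals 0.292 to 0.337 and 0.474 to 0.530). In cells of 80 to 350 it had 0.728 and 0.867 (0.689 to 0.768 and 0.826 to 0.910). In plain cells it had 8.49 and 10.2 (8.36 to 8.62 and 10.1 to 10.4). Ada was thus 27.1-fold and 20.4-fold higher in plain cells than in cells under 80, and most of that lay above the 350 boundary. The middle class held only 8.57% and 8.47% of the plain level, the lowest share of the 6 genes. The libraries differed under 80, with library 2 higher and intervals that do not overlap.

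Rnase1, the secreted ribonuclease, had 0.039 and 0.0606 UMIs per 10,000 under 80, from 98 and 150 UMIs in all. It had 0.253 and 0.316 in cells of 80 to 350 and 1.45 and 1.55 in plain cells. Its log2 ratio of plain cells to cells under 80, 5.21 and 4.68, ranked 1 of the 5072 genes compared. This contrast chose the members, so nothing is read from that rank. The middle class, at 17.5% and 20.4% of the plain level, stood 6.49-fold and 5.22-fold above cells under 80, but its mean there was too low for the size rule.

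Slc7a8, the light chain of the amino acid exchanger, was the scarcest member by UMIs, which are not adjusted for length. It had 0.0187 and 0.023 UMIs per 10,000 under 80, from 47 and 57 UMIs, 0.0698 and 0.0706 from 80 to 350, and 0.457 and 0.416 in plain cells. Plain cells were 24.4-fold and 18.1-fold above cells under 80. Within the top class of Krt4 and Krt13 it had 0.450 and 0.365 in cornified cells and 0.434 and 0.381 in stress cells, with intervals that overlap those of plain cells in both libraries. It was lower in cells with 20 or more UMIs per 10,000 of the cornified genes, at 0.254 and 0.241 (0.159 to 0.385 and 0.171 to 0.329) in 35 and 64 cells. With thinned cells its mean log2 ratio of cornified to other cells of at least 350 was -0.57.

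Tst, the rhodanese, had 0.504 and 0.534 UMIs per 10,000 in cells under 80. It had 1.46 and 1.53 in cells of 80 to 350 and 4.44 and 4.76 in plain cells. The last is 8.82-fold and 8.91-fold above cells under 80, and the middle class stood at 32.8% and 32.1% of the plain level. The 2 libraries lay close together in each of these 3 classes.

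Sdr16c5, the retinol dehydrogenase, had 0.204 and 0.232 UMIs per 10,000 under 80, 0.827 and 0.961 from 80 to 350, and 2.33 and 2.64 in plain cells. Its middle class reached 35.6% and 36.4% of the plain level, the highest share of the 6. Plain cells were 11.4-fold above cells under 80 in both libraries.

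Csrp2, the LIM-domain protein, had the smallest ratio of the 6, 5.23-fold and 5.09-fold in plain cells over cells under 80. It had 0.304 and 0.285 UMIs per 10,000 under 80, 0.498 and 0.461 from 80 to 350, and 1.59 and 1.45 in plain cells.

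Set stage against stage, the members differed in which step was the larger. Between 80 to 350 and under 80, 4 of 4 members with enough UMIs were higher, where 4.22% of 5359 genes were higher and 7.11% lower: Ada 2.32-fold and 1.73-fold, Tst 2.90-fold and 2.86-fold, Csrp2 1.64-fold and 1.62-fold, Sdr16c5 4.05-fold and 4.14-fold. Between at least 350 and 80 to 350, 6 of 6 were higher, where 4.91% of 4828 genes were higher and 15.8% lower (median-of-ratios scaling, 395 genes higher and 390 lower, against 237 and 764). Ada led that step, at 13.5-fold and 14.5-fold, while the other 5 lay between 2.81-fold and 6.48-fold. With all cells of at least 350 set against those under 80, 6 of 6 were again higher, where 9.71% of 5067 genes were higher and 29.4% lower (median-of-ratios scaling, 773 and 942, against 492 and 1491). Nothing is read from these counts either, since the rule used the same contrasts. The finer ranges of Krt4 and Krt13 below cut the same cells more narrowly, so they are not separate support for these steps.

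**Figure D2:**
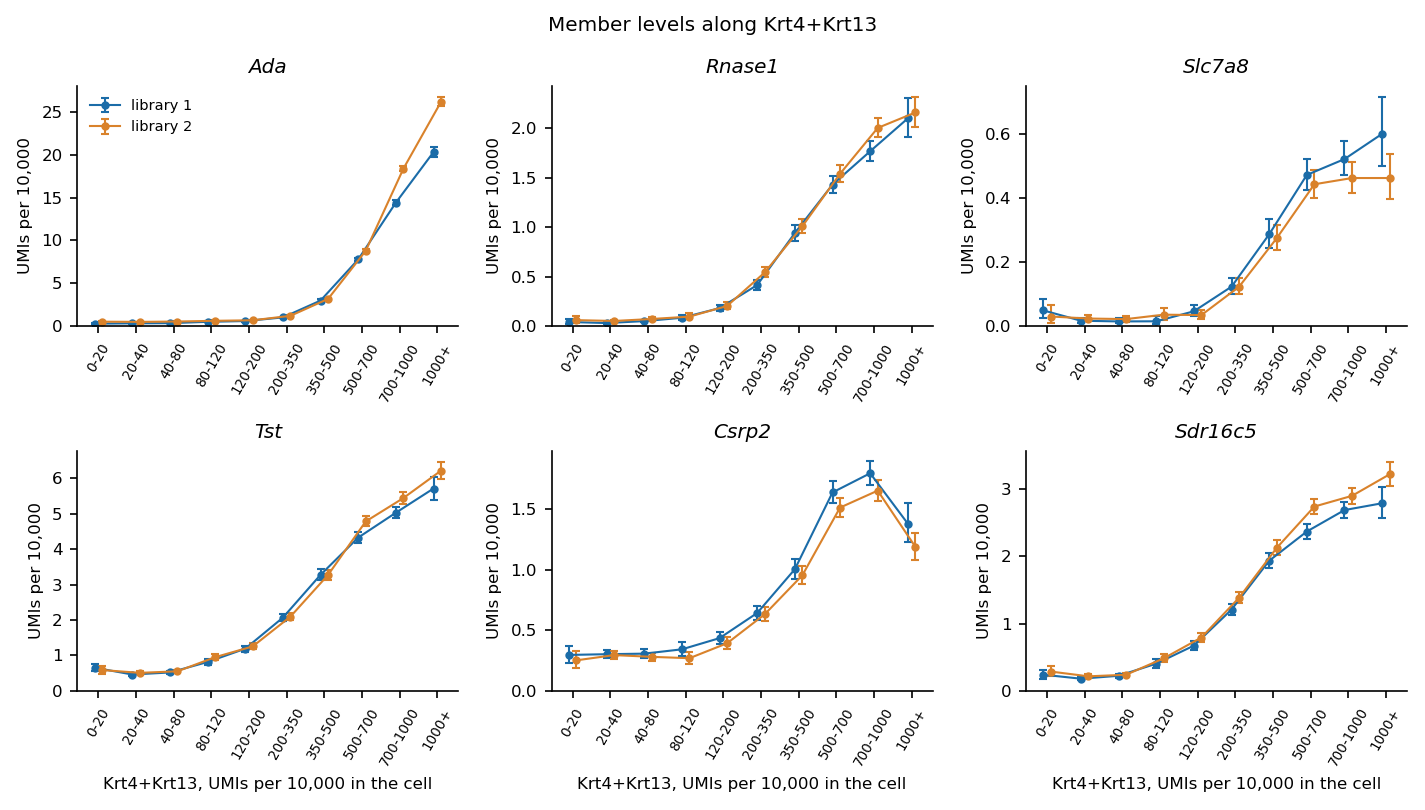
Level of each gene (vertical axis, UMIs per 10,000) over 10 ranges of Krt4 plus Krt13 (horizontal axis, UMIs per 10,000), 1 line per library with exact 95% Poisson intervals. Ada stays near the bottom up to 200 to 350, where it has 1.0 and 1.19, and climbs to 20.3 and 26.2; Csrp2 peaks at 700 to 1000.

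Along 10 ranges of Krt4 plus Krt13, Sdr16c5 first passed 50% of its plain level at 200 to 350, where it had 1.21 and 1.38 UMIs per 10,000. Rnase1, Slc7a8, Tst and Csrp2 first passed it at 350 to 500. Ada passed it last, at 500 to 700. Ada had 1.0 and 1.19 per 10,000 at 200 to 350, 2.97 and 3.17 at 350 to 500, 7.78 and 8.79 at 500 to 700, 14.4 and 18.4 at 700 to 1000, and 20.3 and 26.2 in the 77 and 161 cells of at least 1000. Csrp2 was the exception at the top: it reached 1.80 and 1.65 at 700 to 1000 and had 1.38 and 1.19 above it, whereas the other 5 were highest in the last range in both libraries. The intervals of Rnase1, Slc7a8 and Sdr16c5 there overlap those of the range before it in at least 1 library. These ranges include cornified and stress cells. Among plain cells alone, Ada had 13.6 and 15.7 at 700 to 1000 and 12.8 and 20.7 in the 33 and 85 cells of at least 1000, and Sdr16c5 had 2.64 and 2.88 and then 2.20 and 2.96, so in library 1 neither was highest in the last range. At the low end Tst was not lowest in the first range, with 0.653 and 0.587 at 0 to 20, against 0.461 and 0.508 at 20 to 40. Gland-marker cells, described below, lie mostly in cells under 80.

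Near the boundary of 350, cells just inside it (350 to 400) were compared with cells just outside it (300 to 350). Ada had 2.42 and 2.63 UMIs per 10,000 inside and 1.12 and 1.55 outside, and it alone had intervals apart in both libraries. Rnase1 had 0.947 and 0.815 inside and 0.628 and 0.691 outside. Slc7a8 had 0.202 and 0.225 inside and 0.188 and 0.129 outside. Csrp2 had 0.736 and 0.833 inside and 0.729 and 0.798 outside, nearly the same on both sides. At the boundary of 80, Tst had 0.804 and 0.909 in cells of 80 to 100 and 0.579 and 0.666 in cells of 60 to 80.

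Among cells of at least 350, those with at least 5 UMIs per 10,000 of the cornified genes carried more Ada, 19.8 and 30.4 per 10,000, than those under 5, with 8.52 and 10.1. The log2 ratio was 1.22 and 1.59, and Ada was the 1 member counted as higher, with none lower, where 6.31% of 4340 genes were higher and 6.47% lower (median-of-ratios scaling, 343 and 183, against 274 and 281). Rnase1 (0.40 and 0.53), Tst (0.23 and 0.37) and Sdr16c5 (0.42 and 0.35) had log2 ratios above 0 in both libraries but under the size rule. Csrp2 had -0.59 and -0.32, and Slc7a8 -0.08 and -0.15. Cornified cells had median counts of 25182 and 18026 UMIs, against 14174 and 11587 in plain cells. The mean log2 ratio of Ada was 1.47 with every cell thinned to 3000 UMIs and 1.35 without the 10% of cells with most UMIs in each library, where barcodes that hold a pair of cells would lie. That of Tst was 0.35 with thinned cells but 0.03 without those 10%, against 0.30 in the main setting.

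With cells holding both sets left out of each side, cornified cells had 17.0 and 29.6 Ada UMIs per 10,000 (intervals 16.5 to 17.5 and 29.0 to 30.2), against 8.49 and 10.2 in plain cells. The libraries were further apart in cornified cells than in plain cells, and their intervals did not overlap in either class. Csrp2 had 0.876 and 1.08 in cornified cells (0.764 to 1.0 and 0.973 to 1.2), against 1.59 and 1.45 in plain cells (1.53 to 1.64 and 1.40 to 1.5), a log2 ratio of -0.86 and -0.42. Its intervals do not overlap in either library, but library 2 stayed short of 1.5-fold. Rnase1 had 1.96 and 2.26 in cornified cells and 1.45 and 1.55 in plain cells. Sdr16c5 had 3.17 and 3.34 in cornified cells and 2.33 and 2.64 in plain cells.

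The sum of the cornified genes, cut finer, put the highest Ada at different places in the 2 libraries. With none of these genes Ada had 6.20 and 6.78 UMIs per 10,000, above 0 to 2 it had 9.57 and 11.7, at 2 to 5 it had 16.8 and 18.5, and at 5 to 10 it had 23.2 and 21.1. At 10 to 20 it had 9.42 and 33.7, and at 20 or more 17.4 and 33.0. Up to the range of 5 to 10 Ada rose from range to range in both libraries, although their intervals did not overlap in any of these ranges. Above it, in 31 to 64 cells per range, the libraries no longer moved the same way. Csrp2 had 1.5 and 1.31 with none of the genes, 1.68 and 1.70 at 2 to 5, and 0.408 and 0.790 at 10 to 20. At 20 or more Csrp2 had 0.854 and 1.14, so it did not fall steadily along this sum. Its intervals in these last 2 ranges were apart in library 1 and overlapped in library 2. The cells just inside the boundary of 5 (5 to 7) had 9.01 and 28.1 Ada UMIs per 10,000, against 19.6 and 17.2 just outside it (3 to 5), so at the boundary itself the direction differed between libraries.

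**Figure D3:**
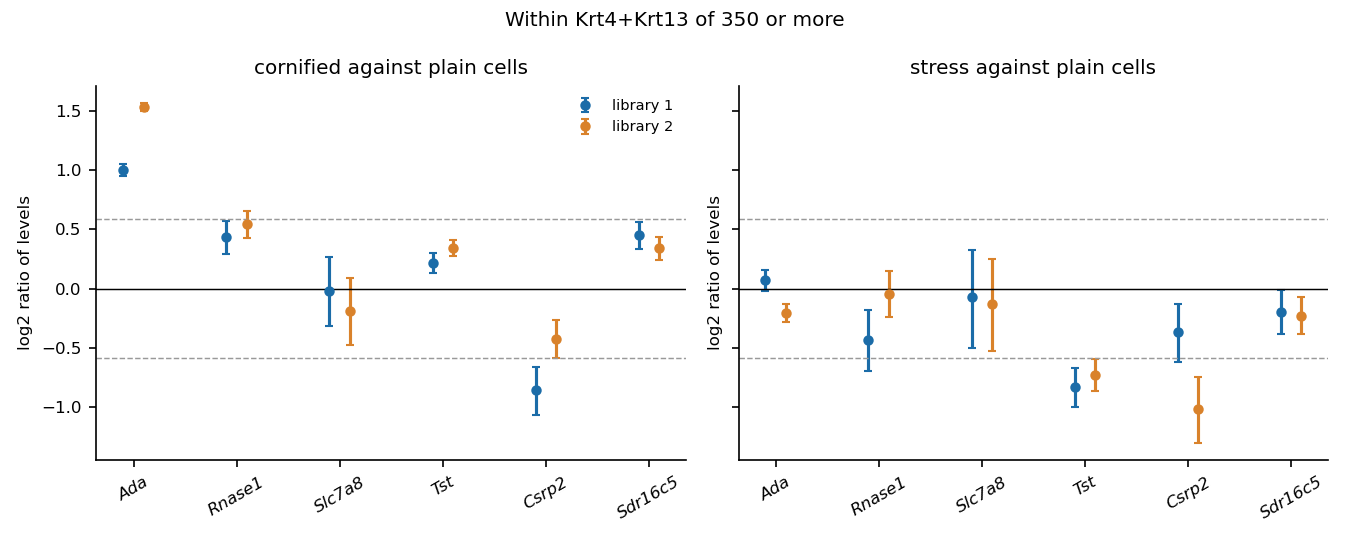
Log2 ratio of levels (vertical axis) in cornified cells against plain cells (left) and stress cells against plain cells (right) for each gene (horizontal axis), 1 point per library with exact 95% counting intervals; dashed lines mark 1.5-fold. Ada lies above the upper line in cornified cells (1.0 and 1.53) and Tst below the lower line in stress cells (-0.83 and -0.73) in both libraries.

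Stress cells carried less Tst. Cells of at least 350 with 10 or more UMIs per 10,000 of Krt16, S100a8 and Alox15 had 2.69 and 2.92 Tst UMIs per 10,000, against 4.53 and 4.92 in those under 10, a log2 ratio of -0.75 in both libraries. Tst was the 1 member counted as lower and 0 were higher, where 2.06% of 4280 genes were higher and 3.29% lower (median-of-ratios scaling, 139 and 58, against 88 and 141). The Tst ratio was -0.58 under that scaling and -0.60 with cells thinned to 3000 UMIs, and it no longer passed the size rule under either. Along the stress sum Tst had 4.50 and 4.80 with none of the genes, 3.97 and 4.68 at 2 to 5, 3.05 and 3.73 at 5 to 10, 3.04 and 3.07 at 10 to 20, and 1.62 and 2.52 at 20 or more, the last in 17 and 29 cells. Without that last range the levels still ran downward from 2 onward in both libraries.

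Of the other members, 4 had log2 ratios at or below 0 in stress cells in both libraries, but none passed the size rule. The median log2 ratio of all 4280 genes compared was -0.18, so values slightly below 0 are common. With median-of-ratios scaling the means were 0.05 for Slc7a8, -0.10 for Sdr16c5, -0.17 for Rnase1 and -0.22 for Csrp2. Ada had a log2 ratio of 0.70 and -0.14, opposite between the libraries. Without the 6 and 3 cells with both gene sets, its mean over libraries was -0.30, and the means of all 6 members were below 0. Csrp2 had -0.00 and -0.77, and a mean of -0.63 without those cells. Sdr16c5 had -0.27 in both libraries, Rnase1 -0.54 and -0.14, and Slc7a8 -0.19 and -0.05. At the boundary of 10, Tst had 3.73 and 3.59 just inside (10 to 13) and 3.18 and 3.54 just outside (7 to 10), so the boundary marks no step.

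From cell to cell the members were spread unevenly, and Ada most of all by the variance of its count. In plain cells thinned to 3000 UMIs each, the variance of the Ada count was 9.90 and 12.1 times its mean. The other 5 lay between 1.09 and 1.61, all above the value of 1 that random sampling of molecules gives. Csrp2 was the highest of these 5 in both libraries, and the sampling error of the ratio was not computed. Mean counts differed too, at 2.27 and 2.71 UMIs for Ada and 0.135 and 0.123 for Slc7a8. The ratio was not adjusted for them. The 10% of plain cells with most Ada held 59.0% and 61.2% of its UMIs, against 31.5% and 32.8% for Tst, 36.4% and 34.1% for Sdr16c5, 49.9% and 48.6% for Rnase1 and 53.8% and 55.7% for Csrp2. For Slc7a8 the share was 87.4% and 91.0%, but only 11.7% and 11.1% of cells had a UMI of it at all. Untouched by thinning, the median plain cell had 2.11 and 2.32 Ada UMIs per 10,000, the 90th percentile was 20.99 and 25.6, and the highest cell had 148 and 173. Cornified cells had a median of 2.16 and 3.88 and a 90th percentile of 37.7 and 84.0. The class levels of Ada are thus set by a minority of cells. The 100 cells with most Ada in each library, all at or above 33.4 and 52.6 per 10,000, held 50.6% and 44.6% of all Ada UMIs. Of them 76 and 68 were plain, 14 and 28 cornified, 6 and 3 stress, 3 and 1 had both sets, 1 and 0 lay at 80 to 350, and none lay under 80 in either library.

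**Figure D4:**
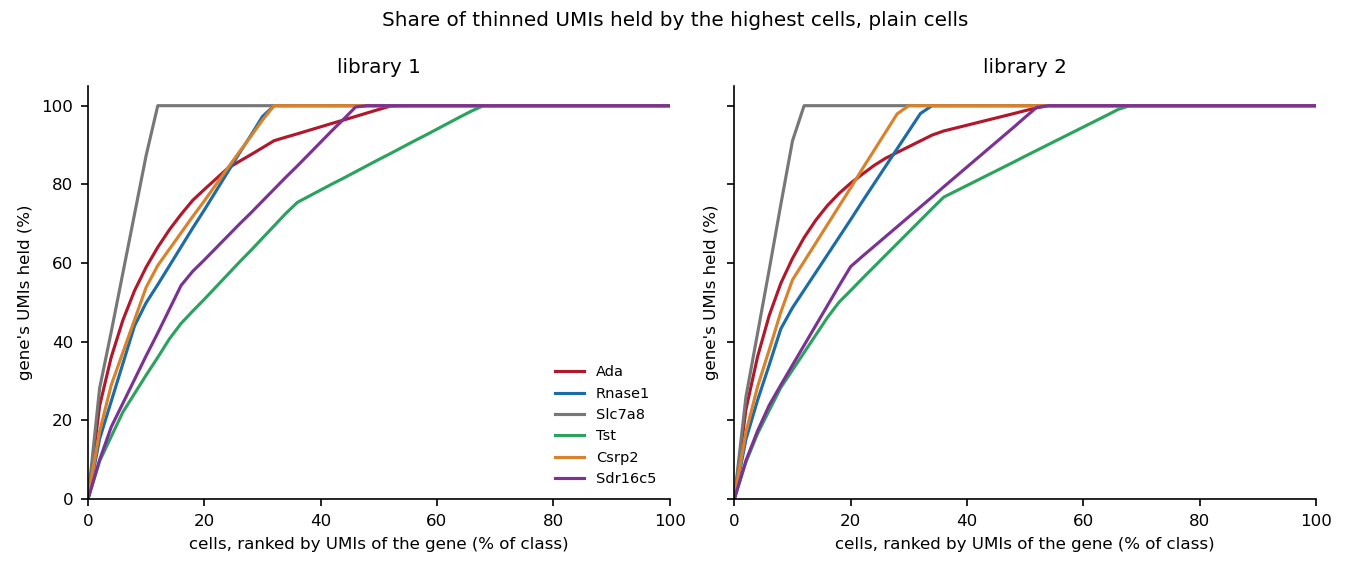
Share of a gene's UMIs (vertical axis, percent) held by the plain cells with most of it (horizontal axis, percent of the class), each cell thinned to 3000 UMIs, 1 panel per library and 1 line per gene. The top 10% of cells hold 59.0% and 61.2% of Ada UMIs but 31.5% and 32.8% of Tst UMIs; the lines of Slc7a8 and Rnase1 are steep because few cells have a UMI of them at this depth.

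At 3000 UMIs per cell, Ada was seen in 52.2% and 53.5% of plain cells, against 8.25% and 13.8% of cells under 80. Without thinning the shares were 76.2% and 77.0% against 19.0% and 25.1%. Free RNA in the droplets can give such UMIs, so cells of another kind are set beside them. Of 31 and 48 immune-marker cells, with medians of 8404 and 7388 UMIs before thinning, 9.68% and 18.8% showed Ada. The share under 80 is no higher than that in either library. Whether it is free RNA or RNA of the cells themselves was not tested. For Rnase1 the shares were 31.2% and 32.9% in plain cells, 1.22% and 1.81% under 80, and 9.68% and 6.25% in immune-marker cells. Slc7a8 was seen in 11.7% and 11.1% of plain cells and in 0.341% and 0.537% of those under 80, Csrp2 in 31.8% and 28.9% against 8.36% and 7.66%, and Sdr16c5 in 46.2% and 52.4% against 5.37% and 6.12%. Immune-marker cells showed Slc7a8 in 0% and 2.08%, Csrp2 in 6.45% and 6.25%, and Sdr16c5 in 19.4% and 8.33%. Among the 21 and 40 immune-marker cells that lay under 80 themselves, the shares were 9.52% and 17.5% for Ada, 0% and 5.0% for Csrp2, 14.3% and 5.0% for Sdr16c5, and 9.52% and 2.50% for Tst. For Csrp2 and Tst these lie below the shares of all cells under 80, in few cells.

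Tst was the member with a second home. It was seen in 67.7% and 67.3% of plain cells and in 13.2% and 14.3% of cells under 80, with 29.0% and 12.5% in immune-marker cells, but in 47.1% and 47.2% of the 68 and 53 gland-marker cells, chosen by Krt7 plus Krt18 of at least 5 per 10,000. These cells had 2.85 and 2.79 Tst UMIs per 10,000. Of them 59 and 46 lay under 80, and without gland-marker and immune-marker cells the level of Tst under 80 was 0.472 and 0.520, against 0.504 and 0.534 with them. Summed over the 12 immune genes in the files, markers stood at 0.206 and 0.248 per 10,000 in plain cells and at 4.03 and 9.73 under 80. Fibroblast markers were almost all Dcn, with Lum and Dpt at 0, at 0.0769 and 0.138 in plain cells and 2.20 and 2.39 under 80. Of the 7 endothelial markers, Cdh5, Kdr, Emcn and Cldn5 were at 0 under 80 in both libraries. The 7 summed to 0.0310 and 0.0287 per 10,000 there, with Egfl7 highest at 0.0167 and 0.0206.

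Plain cells often held several members at once. With each cell at 3000 UMIs, at least 3 of the 6 genes were seen in 46.9% and 48.4% of plain cells, 4.86% and 6.14% of cells at 80 to 350, and 0.341% and 0.586% of cells under 80. The share that independent genes of the same detection would give was not computed. Joint expression is therefore not read from these shares. Of the 15 pairs within plain cells, Ada and Csrp2 had the highest correlation in both libraries: Csrp2 was seen in 42.3% and 37.9% of cells with Ada, against 20.3% and 18.5% of cells without it. Across the thinned cells their correlation was 0.36 and 0.24, given as a description over 1287 and 1807 cells of 1 pool. Ada and Tst followed, at 0.15 and 0.21, and Ada and Rnase1, at 0.12 and 0.18. By the count of cells with both genes over that of independent genes, Ada with Csrp2 stood at 1.33 and 1.31 and Rnase1 with Slc7a8 at 1.34 and 1.17. Sdr16c5 was seen in 47.2% and 54.5% of cells with Ada, against 45.2% and 49.9% of cells without it.

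Plain cells with at least 20 Ada UMIs per 10,000 were set against the rest of the class to describe that pair. The boundary was chosen after the values were seen. There were 138 and 222 such cells, 10.7% and 12.3% of the class with 62.0% and 66.4% of its Ada UMIs, and 0 of them were gland-marker or immune-marker cells. Csrp2 had 3.86 and 3.21 UMIs per 10,000 in the Ada-rich cells, against 1.27 and 1.16 in the other plain cells, a log2 ratio of 1.60 and 1.47. Slc7a8 (0.96 and 0.82) and Rnase1 (0.73 and 0.90) passed the size rule too, where 0.706% of 4389 genes were higher and 0.980% lower. Tst (0.50 and 0.62) and Sdr16c5 (-0.04 and 0.22) did not. The Ada-rich cells had medians of 702 and 720 Krt4 plus Krt13 UMIs per 10,000, against 546 and 553, and medians of 17230 and 14048 UMIs, against 13793 and 11370. Within the single range of 500 to 700 the Csrp2 ratio was 1.69 and 1.56, and within 700 to 1000 it was 1.32 in both libraries, close to the ratio over the class. Rnase1 had 0.69 and 0.77 within 500 to 700 but 0.27 and 0.65 within 700 to 1000, and Slc7a8 had 1.08 and 0.70 and then 0.58 and 0.84. Both missed 1.5-fold at 700 to 1000 in library 1. Within 350 to 500, which held 11 and 19 Ada-rich cells, the Csrp2 ratio was 1.23 and 0.77.

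The cell cycle was not part of how the genes were chosen, although the cells are the same. G2/M-marker cells, the 20% of each library with most RNA of a list of mitosis genes, made up 27.8% and 29.7% of cells under 80, 20.5% and 20.4% of cells at 80 to 350, and 0.466% and 0.166% of plain cells. At 80 to 350, where dividing and remaining cells were both plentiful, Sdr16c5 had 0.532 and 0.563 UMIs per 10,000 in 397 and 492 G2/M-marker cells, against 0.965 and 1.17 in 1431 and 1742 remaining cells, a log2 ratio of -0.86 and -1.05. Rnase1 had 0.171 and 0.205 against 0.294 and 0.376 (-0.78 and -0.87). These 2 of 5 members compared were lower and 0 higher, where 2.55% of 5216 genes were lower and 9.85% higher. Tst (-0.82 and -0.58) fell just short in library 2, and Ada (-0.20 and -0.19) and Csrp2 stayed within the rule. The share of such cells falls along Krt4 and Krt13 and may differ within the class too; the part of that in these ratios was not tested.

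Under 80, 0 of 4 members compared passed the rule in either direction, where 9.76% of 5484 genes were higher and 3.77% lower in G2/M-marker cells. Ada had 0.319 and 0.497 in G2/M-marker cells, against 0.310 and 0.502 in remaining cells. At 350 or more only 6 and 3 G2/M-marker cells remained. Tst, with 2.02 and 2.64 there from 21 and 15 UMIs, against 4.43 and 4.81, was the 1 member lower and 0 were higher, where 4.18% of 4860 genes were lower and 19.5% higher. With only remaining cells on both sides, the log2 ratio of cells of at least 350 to cells under 80 was 4.98 and 4.65 for Ada, 5.07 and 4.70 for Rnase1, 4.47 and 3.83 for Slc7a8, 2.93 and 3.06 for Tst, 2.48 and 2.27 for Csrp2 and 3.38 and 3.50 for Sdr16c5. The remaining cells are those below the marker cut of each library and may still hold cycling cells.

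The genes most alike in pattern were ranked by Pearson correlation over 12 cell classes, among 6145 genes and by the smaller value of the 2 libraries, as a description with no p. Ada ran with Fam213b (0.984 and 0.986), Serpinb3b, Serpinb12 and Ttc39c, 2 of them serine protease inhibitors of the serpin family. Rnase1 ran with Dlg2 (0.989 and 0.983), Il17rc, Rnh1 (0.981 and 0.986) and Fam25c, and Rnh1 is the cytosolic ribonuclease inhibitor. Slc7a8 ran with Rnase1 (0.970 and 0.974), Trappc6a, Tmprss4 and Ephx3. Tst ran with Hadh (0.993 and 0.991), a mitochondrial enzyme of fatty acid oxidation, and with Rhbg, Rnh1 and Pycard. Csrp2 ran with Tmem123 (0.969 and 0.942), Cyp2c65, Selenbp1 and Glrx2. Sdr16c5 ran with Sult2b1 (0.991 and 0.992), the cholesterol sulfotransferase of differentiating keratinocytes, and with Dmkn, Pycard and Rhov. Among the members themselves, Rnase1 and Sdr16c5 were most alike (0.979 and 0.983), and Csrp2 and Sdr16c5 least (0.815 and 0.875). The classes share their libraries and run along 1 axis, so high values are common.

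The pathways around the 6 genes were not higher as a whole in plain cells than in cells under 80. In each list most compared genes were within the size rule or lower, the amino acid transporters and the LIM-domain list mostly lower. Of all 5072 genes compared, 9.15% were higher and 27.4% lower, with a median log2 ratio of -0.24. The lists hold few compared genes, so nothing is read from a count near those shares. The lists and their sizes were chosen with results of these cells known, and they are described by counts and medians.

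Around Ada, 6 of 25 genes of purine turnover had enough UMIs, 2 were higher and 2 lower, and the median was 0.04. Samhd1, which breaks down deoxynucleotides, had 0.506 and 0.498 per 10,000 in plain cells, against 0.138 and 0.137 under 80. Adk, the kinase that competes with Ada for adenosine, had a log2 ratio of -1.06 and -1.07, and Pnp, the phosphorylase that acts after it, -0.99 and -1.14. Ada was thus higher while both of these enzymes were lower.

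Around Rnase1, 7 of 11 ribonuclease genes were compared, with 2 higher, 2 lower and a median of -0.42. The inhibitor Rnh1 had 5.97 and 6.24 in plain cells, against 2.29 and 2.40 under 80 (1.38 in both libraries). Ang (-0.88 and -0.92) and Rnase4 (-0.99 and -1.06), secreted relatives in the same chromosomal cluster as Rnase1, were lower.

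Around Slc7a8, 0 of 6 amino acid transporters compared, of 22 listed, were higher and 5 were lower, with a median of -1.39. Slc6a6, the taurine transporter, had 0.216 and 0.236 in plain cells, against 2.58 and 2.56 under 80. Slc7a5, another light chain of the same exchanger family, had a log2 ratio of -1.86 and -1.74. The shared heavy chain Slc3a2 had 1.37 and 1.46 in plain cells, against 1.62 and 1.63 under 80, within the size rule. Slc3a2 was lower in between, at 0.977 and 1.0 in cells of 80 to 350.

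Around Tst, 12 of 18 genes of sulfur metabolism were compared, 1 higher (Gss, glutathione synthetase, 0.59 and 0.64) and 5 lower, with a median of 0.00. The paralogue Mpst, next to Tst in the genome, had 1.06 and 1.12 in plain cells, against 0.796 and 0.814 under 80, within the rule. Cbs (-2.14 and -2.07) and Cth (-1.52 and -1.30), the enzymes that make cysteine from homocysteine, were lower, as was Gclm (-1.76 and -1.70), a subunit of the first enzyme of glutathione synthesis.

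Around Csrp2, 12 of 20 LIM-domain and actin-binding genes were compared, 1 higher (Ablim1, 0.85 and 0.94) and 7 lower, with a median of -0.76. Csrp1, the closest relative of Csrp2, had 0.786 and 0.789 in plain cells, against 2.24 and 2.25 under 80, and Crip1 had 6.78 and 6.96 against 28.6 and 29.1. The 2 paralogues thus ran in opposite directions.

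Around Sdr16c5, 10 of 33 retinoid genes were compared, 4 higher and 3 lower, with a median of -0.19. Crabp2, which carries retinoic acid to its receptor, had 3.09 and 3.27 in plain cells, against 0.395 and 0.416 under 80, and Fabp5, another carrier of retinoic acid and fatty acids, had 127 and 124 against 16.6 and 15.7. Rdh12, a retinal reductase, was higher too (1.77 and 1.82), while the carrier Crabp1 was lower (-2.46 and -2.17). The paralogue Sdr16c6 came later: in cornified cells it had 0.881 and 1.12, against 0.391 and 0.359 in the other cells of at least 350.

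**Figure D5:**
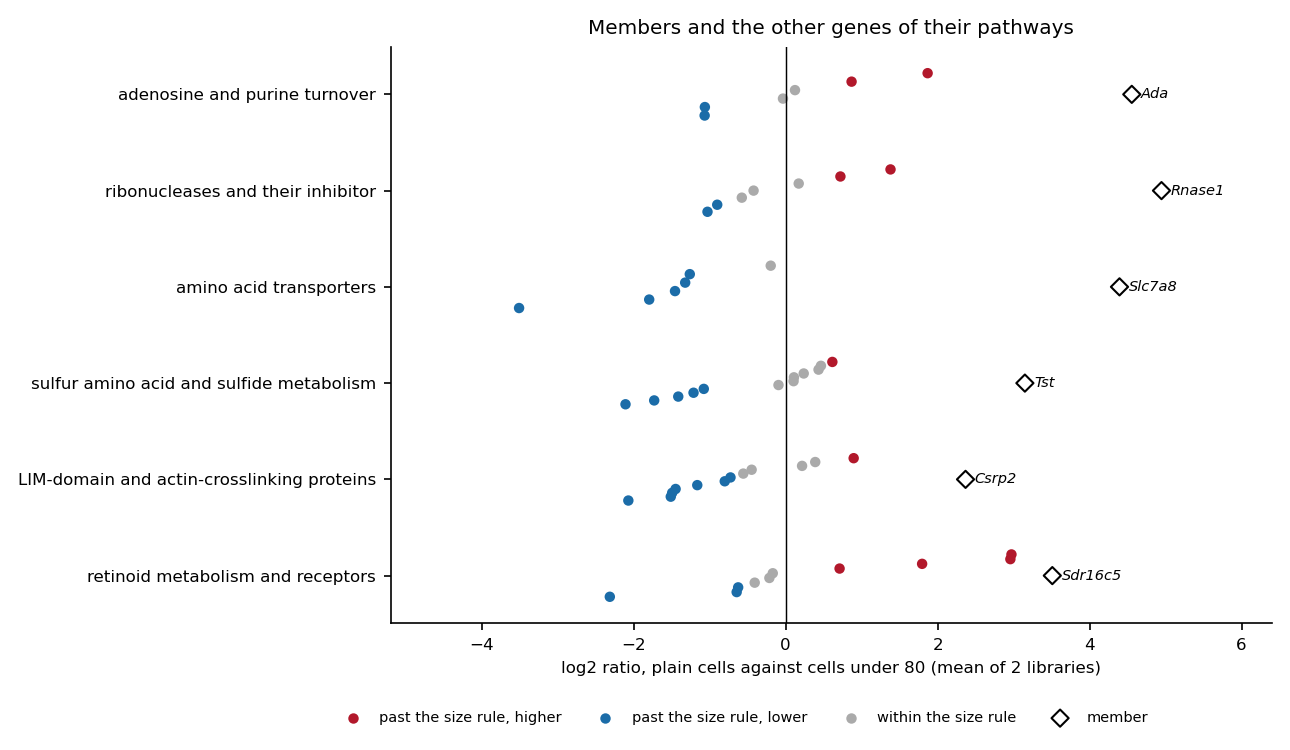
Log2 ratio of plain cells to cells under 80 (horizontal axis, mean of the 2 libraries) for the compared genes of each pathway list (rows), coloured by whether they passed the size rule, with the member as an open diamond. Each member lies above 0, from 2.37 for Csrp2 to 4.95 for Rnase1, while list medians lie between -1.39 and 0.04.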

How the data were processed

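UMI counts per gene and cell were deposited by the authors for 2 libraries as raw, unnormalised counts; per the submitters' processing notes they come from Cell Ranger on mm10, and the annotation version is not given in the sources used here. Barcodes entered the analysis with 500 or more genes and no more than 10% mitochondrial UMIs, which left out 308 and 513. Counts were summed per class and library and expressed per 10,000 UMIs, with exact Poisson intervals at 95%. The libraries hold 67962712 and 73935792 UMIs; they are splits of 1 suspension, so no count model was fitted and no p-value is given. The size rule asked for 1.5-fold in each library and a mean of 20 or more UMIs per 1000000. Doublets were not called; 1 alternative leaves out the 10% of cells with most UMIs. Shares were taken after thinning to 3000 UMIs, which left out 0 cells. All 6 members are named; of other genes, the 4 most alike and up to 3 higher and 3 lower per pathway list could be named, and Slc3a2, Mpst and the genes quoted beside Ada-rich cells were added after their values were seen. Pattern likeness is the correlation of log2(level + 0.1) over classes of at least 20 cells. The members, lists and boundaries were chosen with earlier results of these data known. Computation used scipy 1.17.1 and pandas 2.3.3 under Python 3.11.15 with numpy 2.4.6, and figures matplotlib 3.10.9.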

Additional observations from a re-analysis of the deposited data

Results flagged for a closer look

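Among the 6 and 3 cells with both gene sets, Csrp2 went the opposite way to other cells of at least 350. Its log2 ratio of cornified to other cells was 1.44 and 2.18 among stress cells, against -0.86 and -0.42 among the rest, a difference of 2.45. By construction the difference of its stress ratio between cornified cells and the rest has the same value, 2.45. The corresponding difference for Rnase1 was -0.99, from -0.46 and -0.54 among stress cells, against 0.44 and 0.54 among the rest. These were singled out because both libraries moved one way in one group and the opposite way in the other; the differences were not tested and rest on 60 and 22 Csrp2 UMIs and 14 and 7 Rnase1 UMIs in the cells with both sets.

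The 6 genes were also present in the 821 barcodes left out for more than 10% mitochondrial UMIs, data outside the comparisons above. Averaged over the libraries, their levels there were 3.16 UMIs per 10,000 for Ada, 0.302 for Rnase1, 0.246 for Slc7a8, 1.26 for Tst, 0.694 for Csrp2 and 0.721 for Sdr16c5. For all 6 this lies between the levels in plain cells and in cells under 80.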

How the results depend on the processing

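All 6 members stayed higher in plain cells, and in all cells of at least 350, than in cells under 80 under each of the 18 settings tried, and none changed sign at 80 to 350 against under 80 or between cornified and other cells. Ada in cornified cells ranged from 1.22 to 1.59 on the log2 scale, Tst from 0.03 to 0.40 and Csrp2 from -0.74 to -0.23. In stress cells Ada changed sign in 4 settings and Slc7a8 in 5, and Tst ranged from -1.07 to -0.58. The count of members lower in stress cells, 1, became 0 with median-of-ratios scaling and with thinned cells, 2 with boundaries of 10 and 20 and 3 without the 10% of cells with most UMIs; without that 10%, 1 member was lower in cornified cells, where 0 were. With boundaries of 60 and 250 the count higher at 80 to 350 was 2 in place of 4, because Ada (0.59) and Csrp2 (0.36) missed the rule, and the G2/M count at 80 to 350 was 1 in place of 2. At 350 or more, with 6 and 3 G2/M-marker cells, the count lower was 2 with median-of-ratios scaling, 6 with boundaries of 60 and 250 and 4 without the 10%, in place of 1, and 1 was higher with thinned cells; boundaries of 100 and 450 left no such cells in a library, so no value. Leaving out 1 library at a time, counts ranged from 0 to 1 lower in cornified cells, 1 to 2 lower and 0 to 1 higher in stress cells, and 3 to 4 lower and 0 to 1 higher in G2/M-marker cells of at least 350. Over all settings 723 values stayed within the stated spread, 225 moved by more, and 0 values past the size rule changed sign; the causes were not tested. One further setting, without the cells holding both gene sets, was chosen after seeing the data. No paired analysis was possible because there is 1 group of cells from 1 pool and no second group to pair. Depth limits Slc7a8 and Rnase1 most, with 47 to 150 UMIs in cells under 80.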

Other observations

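The Ada-rich plain cells, those with at least 20 Ada UMIs per 10,000, differed from other plain cells in keratins as well as in the members; these genes were picked after their values were seen. Krt15, a keratin best known from basal cells, had 19.9 and 21.8 UMIs per 10,000 in the Ada-rich cells, against 5.74 and 7.84 in the others. Krt6a, a keratin induced in wounds and present in the oral lining, had 1.22 and 1.36, against 10.1 and 9.21, a log2 ratio of -3.05 and -2.76. Within the single range of 500 to 700 Krt4 plus Krt13, the ratio of Krt6a was -3.23 and -2.87 and that of Krt15 2.36 and 1.10. Krt5, another basal keratin, had 2.14 and 1.73 in the Ada-rich cells, against 4.89 and 4.79. Within ranges its log2 ratio was -1.06 and -0.92 at 500 to 700 but -0.18 and -0.85 at 700 to 1000, so in library 1 it lay near 0 there. Mt3, a metallothionein, had 20.1 and 17.7 against 10.5 and 8.86, and Serpinb12 had 9.52 and 12.9 against 5.29 and 5.68. Glul, glutamine synthetase, had 0.119 and 0.115 against 0.560 and 0.549, and Adh7, an alcohol dehydrogenase that oxidises retinol, 4.85 and 5.79 against 10.7 and 11.7.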
